A study of Mus musculus with 4 samples.

Results

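The genes described here were the mouse collagens outside the type IV family together with 6 small leucine-rich proteoglycans. They were chosen by name, as every symbol made of Col, a number, the letter a and a number, less those starting with Col4a, plus Dcn, Lum, Bgn, Fmod, Ogn and Prelp. This gave 44 genes, 38 collagens and 6 proteoglycans, of the 31053 genes of the count tables. The name interstitial covers only some of them: the rule also took in basement membrane collagens (Col15a1, Col18a1), transmembrane collagens (Col13a1, Col17a1, Col23a1, Col25a1) and the network-forming Col8a1 and Col8a2. The rule by name used no measured values, but the set was chosen with earlier results of these data known.

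The samples were brain vascular-associated cells (BVACs) isolated from perfused mouse brain with CD31 antibody-tagged magnetic beads, mechanical dissociation and collagenase II, and profiled by 3′ droplet single-cell RNA-seq. The mice were male WT C57BL/6 animals aged 12 to 14 weeks. Chronic social defeat (CSD) mice lived for 14 days in the cage of an aggressive CD-1 mouse behind a perforated partition, which was lifted for 5 minutes a day. Home cage (HC) mice were also housed for 14 days beside a CD-1 mouse, across a partition that stayed in place. Each condition had 2 libraries (CSD 1, CSD 2, HC 1 and HC 2), and each library held the pooled cells of 4 mice, so single mice cannot be told apart and a library was the unit of every test. The cerebellum, striatum, brainstem, olfactory bulbs and white matter had been removed, and the beads select for vessel-associated cells, so fibroblasts were sampled only as far as they came along with this selection. The digestion enzyme cuts the protein products of the genes described here, and its effect on which cells were recovered was not tested.

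Collagens are made as chains that assemble into triple helices. Fibrillar collagens (types I, III, V and others) form the cable-like fibrils of connective tissue. Fibril-associated collagens such as types IX, XII and XIV sit on fibril surfaces, and small leucine-rich proteoglycans such as decorin and lumican bind fibrils and govern their spacing and diameter. In the brain the parenchyma holds little fibrillar collagen, and fibroblasts of the meninges, of larger vessels and of the choroid plexus stroma are its known producers, while vessel walls also hold collagen made by smooth muscle cells.

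Total UMI counts were 27297599 to 30361474 per library, and 14415 barcodes passed the limits of at least 500 UMIs, at least 250 genes and at most 25% mitochondrial UMIs (2553 to 4934 per library, median 1408 to 2357 UMIs per cell). CSD 2 stood apart: it kept 32.6% of its UMIs in these cells, against 51.8% to 56.8% in the other libraries, and it held 90 choroid plexus cells, against 374 to 848. The 6 pairs of libraries shared 20 cell barcodes in all. Cells were put into classes by marker genes that included none of the 44 genes. A fibroblast had to hold at least 3 of 18 fibroblast markers, and no other class could reach more than 2 of every 3 of that number. This gave 61 fibroblasts (19, 9, 6 and 27 cells in CSD 1, CSD 2, HC 1 and HC 2), 982 mural cells, 5034 endothelial cells (EC) and 1706 choroid plexus cells. Among mural cells, 420 passed as pericytes and 447 as smooth muscle cells (SMC). Of the 61 fibroblasts, 9 held only 3 markers. In 20 of them a second class reached more than 1 of every 2 of the number of fibroblast markers. A further 14 barcodes with most markers fibroblast were left out as mixed.

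The fibroblasts carried 17 of their 18 markers, with Dpt alone at 0, and the markers summed to 4097 to 5454 counts per 1000000 UMIs of the class (CPM) in the 4 libraries. The sum of this list was lower in CSD 1 and CSD 2 (4407 and 4097 CPM) than in HC 1 and HC 2 (4987 and 5454 CPM). The cells were gated on this list, so its presence and sum there were set by the gate and do not test the class name. In EC the same list summed to 13.2 to 32.1 CPM and in microglia to 60.3 to 70.9 CPM. It summed to more in mural cells (156 to 218 CPM) and choroid plexus cells (215 to 230 CPM). The gene leading the fibroblasts by fold was Dcn, followed by Apod and Lum, so the leading genes were in part members of the set. Markers of other classes were also found in these cells. Mural markers summed to 811 to 2634 CPM, with Atp13a5, Myh11 and Cnn1 at 0, and were lower in the CSD libraries (1173 and 811 CPM) than in the HC libraries (2137 and 2634 CPM). EC markers, with Pecam1, Kdr and Esam at 0, went the other way, with 935 and 1359 CPM in CSD against 441 and 646 CPM in HC. Choroid plexus markers summed to 285 and 142 CPM in CSD and to 373 and 391 CPM in HC. The part of these admixed cells or RNA in the results was not tested. The class was small: its sum was 63079 UMIs in CSD 1, 49302 in CSD 2, 29478 in HC 1 and 58851 in HC 2. A count of 0 there allows a level of up to 47.6, 60.8, 102 and 51.0 CPM (3 counts of the total) in these libraries, in the same order. Intervals and such limits cover counting error only.

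The genes lie on 15 chromosomes, and several neighbour each other (GRCm38, GENCODE annotation). Col3a1 (chr1:45311538-45349706, + strand) and Col5a2 (chr1:45374321-45503282, − strand) lie 24614 bases apart, and Dcn (chr10:97479609-97518143) and Lum (chr10:97565128-97572703), both on the + strand, lie 46984 bases apart, with no gene of the tables between either pair. Col1a1 is at chr11:94936224-94953042, Col1a2 at chr6:4504814-4541544 and Bgn at chrX:73483602-73495933, all on the + strand. None of the 44 genes overlapped another listed gene on its own strand. Promoter sequence from RefSeq (GRCm38.p6) was matched for 34 of the 44 symbols, and the 250 bases before the start of Col3a1 and of Bgn are shown because both genes were high in fibroblasts and mural cells and low in EC. The letters TATAAA were searched for on both strands. The letters CCAAT and, in addition to these, GGGCGG were searched for in the same way, and capitals mark every match.
Col3a1, chr1:45311288-45311537, + strand: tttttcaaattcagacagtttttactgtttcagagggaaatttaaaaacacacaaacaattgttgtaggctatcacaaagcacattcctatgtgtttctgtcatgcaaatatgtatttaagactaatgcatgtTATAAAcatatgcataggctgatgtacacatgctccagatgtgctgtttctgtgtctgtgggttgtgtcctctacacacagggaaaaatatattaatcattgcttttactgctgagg
Bgn, chrX:73483351-73483600, + strand: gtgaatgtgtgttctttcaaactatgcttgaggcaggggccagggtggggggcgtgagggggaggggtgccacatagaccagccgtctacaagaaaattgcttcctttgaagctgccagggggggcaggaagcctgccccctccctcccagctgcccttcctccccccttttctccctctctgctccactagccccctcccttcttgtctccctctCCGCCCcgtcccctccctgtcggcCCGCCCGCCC
The Col3a1 window held 1 TATAAA, starting 117 bases before the gene's start, and the Bgn window held 3 matches to GGGCGG on the reverse strand, starting 34, 10 and 6 bases before it, of which the last and the one before share bases. In windows of the same length before 27025 genes, 13% held TATAAA, 34.5% CCAAT and 32.9% GGGCGG, and among the 34 matched members these were 6, 10 and 19 genes (17.6%, 29.4% and 55.9%). A match describes the letters only.

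The levels of the 44 genes differed between classes, and fibroblasts held the most in sum. All members together reached 11525 ± 3222 CPM in fibroblasts (SD, n = 4 libraries here and below), 1401 ± 253 CPM in mural cells, 1127 ± 106 CPM in choroid plexus cells, 670 ± 70.5 CPM in ependymal cells, 227 ± 39.6 CPM in microglia and 116 ± 49.9 CPM in EC. In fibroblasts most of this came from the proteoglycans (8516 ± 2919 CPM, against 3009 ± 495 CPM for the 38 collagens), whereas in choroid plexus cells the collagens held most of it (905 ± 91.4 CPM, against 222 ± 15.2 CPM). CPM here counts 3′ UMIs, 1 per captured molecule, so it was not divided by gene length.

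**Figure D1:**
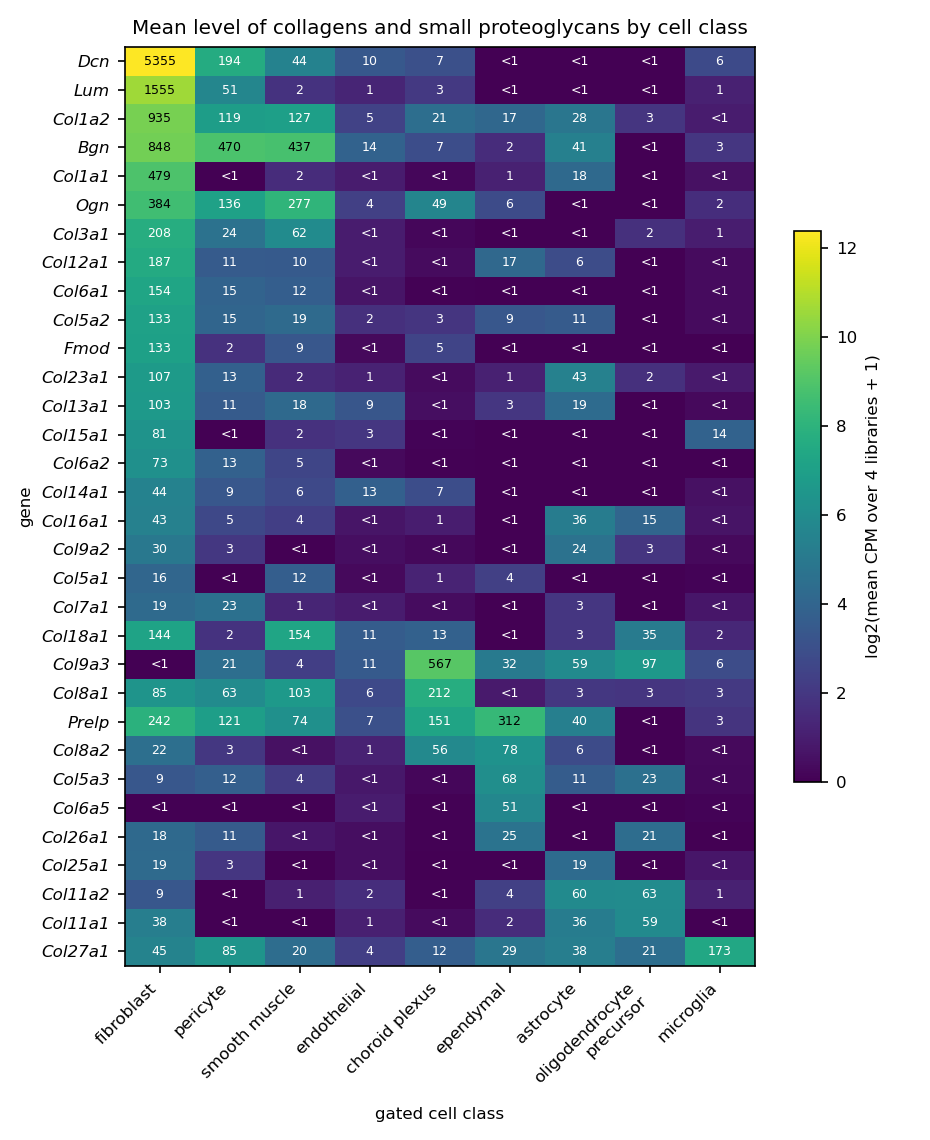
Mean level over the 4 libraries of the 32 genes that reached 10 CPM in any of 9 gated cell classes. Colour is log2(mean CPM + 1), each cell prints the mean CPM, and genes are ordered by the class in which they were highest. Most rows peak in fibroblasts, where some peaks rest on few UMIs, such as 4 for Col5a1 and 5 for Col9a2. Col9a3 and Col8a1 peak in choroid plexus cells, Col27a1 in microglia, Col18a1 in SMC and Col7a1 in pericytes. For Col18a1 the libraries lay at 118 to 175 CPM in SMC, within the 67.8 to 301 CPM of fibroblasts. Prelp, Col8a2, Col5a3, Col6a5 and Col26a1 peak in ependymal cells, Col11a1 and Col11a2 in oligodendrocyte precursors and Col25a1 in astrocytes. The Col25a1 peak rests on 9 UMIs in 2 astrocytes of CSD 1, with a mean (18.9 CPM) close to that of fibroblasts (18.6 CPM).

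The fibrillar collagens Col1a1, Col1a2, Col3a1 and Col5a2 had their highest level in fibroblasts. Col1a1, which encodes the α1 chain of type I collagen, was at 333 CPM in CSD 1, 446 in CSD 2, 645 in HC 1 and 493 in HC 2. The level of Col1a2, the partner chain, was 729, 649, 1119 and 1240 CPM in the same order. For both genes each CSD library lay below each HC library. The level of Col3a1, the type III chain found with type I in elastic tissues, was 159, 183, 204 and 289 CPM, again without overlap between the conditions. Col5a2, a chain of the type V collagen that starts fibrils, was at 143, 101, 204 and 85.0 CPM, and here the conditions overlapped. Of the 61 fibroblasts, 32 held UMIs of both type I chains, 18 of Col1a2 alone, 5 of Col1a1 alone and 6 of neither.

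Fibril-associated, filament-forming and transmembrane collagens were also found in fibroblasts. Col12a1, a fibril-associated collagen, was at 95.1, 142, 237 and 272 CPM in CSD 1, CSD 2, HC 1 and HC 2. Col6a1, a chain of the beaded-filament type VI collagen, was at 127 and 304 CPM in the CSD libraries and at 0 and 187 CPM in the HC libraries, and 1 cell of CSD 2 held 12 of its 34 UMIs. Col18a1, the parent chain of endostatin, was at 301, 122, 67.8 and 85.0 CPM, with both CSD libraries above the HC libraries. It was the only one of the 15 members with at least 20 UMIs in fibroblasts to do so, where 18.9% of all 1649 genes with that many UMIs did. The transmembrane collagens Col23a1 (111, 60.8, 102 and 153 CPM) and Col13a1 (95.1, 60.8, 67.8 and 187 CPM) overlapped between conditions. Many of these values rest on few UMIs: 32 for Col18a1 and 22 each for Col23a1 and Col13a1 over all libraries.

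Decorin and lumican led the proteoglycans. Dcn was at 4677 CPM in CSD 1, 2109 in CSD 2, 6819 in HC 1 and 7816 in HC 2, and each CSD library lay below each HC library. Lum was at 2632, 568, 2205 and 816 CPM, so that it was high in CSD 1 and HC 1 and low in CSD 2 and HC 2. A Dcn UMI was found in 55 of 61 fibroblasts (90.2%, median 2282 UMIs per cell) and in 0.616% of EC (median 1084 UMIs per cell). Both genes were found together in 40 fibroblasts, Dcn alone in 15, Lum alone in 1 and neither in 5.

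The other proteoglycans of fibroblasts overlapped between conditions except Prelp. The level of Bgn (biglycan) was 1126, 669, 712 and 884 CPM, and that of Ogn (osteoglycin) was 396, 730, 0 and 408 CPM, with no UMI in the 6 cells of HC 1 and 21 of its 85 UMIs in 1 cell of CSD 2. Prelp, a proteoglycan that anchors basement membranes to connective tissue, was at 254, 101, 271 and 340 CPM. Fmod (fibromodulin) was at 222, 20.3, 67.8 and 221 CPM, with CSD 2 lowest. Each fibroblast held UMIs of 2 to 15 members, with a median of 8.

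CSD compared to HC gave no called member in fibroblasts. Of the 44 genes, 11 had enough counts to be tested, and 0 passed at an adjusted p of 0.05, where 0% of all 869 genes tested passed. At an unadjusted p under 0.05 there were 0 members and 57 genes in all, and DESeq2 also called 0 members. Dcn had the smallest p of the members (log2 fold change −1.08, SE 0.52, unadjusted p = 0.0649, adjusted p = 0.802), followed by Col1a2 (−0.71, SE 0.42, adjusted p = 0.885) and Col12a1 (−1.06, SE 0.68, adjusted p = 0.885). Col1a1 was at −0.44 (SE 0.45) and Col3a1 at −0.52 (SE 0.61), both with an adjusted p of 0.981. The median log2 fold change of the 11 genes was −0.44, beside −0.01 over all genes tested.

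Of the 15 members with at least 20 UMIs in fibroblasts, 6 had both CSD libraries below both HC libraries (Col1a1, Col1a2, Col3a1, Col12a1, Dcn and Prelp) and 1 had them above, while 15% and 18.9% of all 1649 genes with that many UMIs did so. None of the 6 passed the test, and the libraries held 6 to 27 fibroblasts each. Without CSD 2, the library that stood apart, the log2 fold change of Dcn was −0.73 (SE 0.63, adjusted p = 0.993). When fibroblasts were taken from clusters in place of the gate (132 cells), the order changed for 4 of these 6 genes. The CSD libraries still lay below the HC libraries for Dcn (2550 and 1491 CPM, against 2939 and 3962 CPM), and Col12a1 (59.0 and 49.0 CPM, against 81.6 and 112 CPM), whereas Col1a1 (135 and 259 CPM, against 208 and 220 CPM), Col1a2, Col3a1 and Prelp overlapped. In the gated fibroblasts mural and choroid plexus markers were also lower in CSD and EC markers higher, as given above. The 18 fibroblast markers, none of them a member, were lower in CSD as well (4407 and 4097 CPM, against 4987 and 5454 CPM in HC). The part of these differences in the result was not tested. Fewer cells of one kind and less RNA per cell cannot be told apart in these sums.

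**Figure D2:**
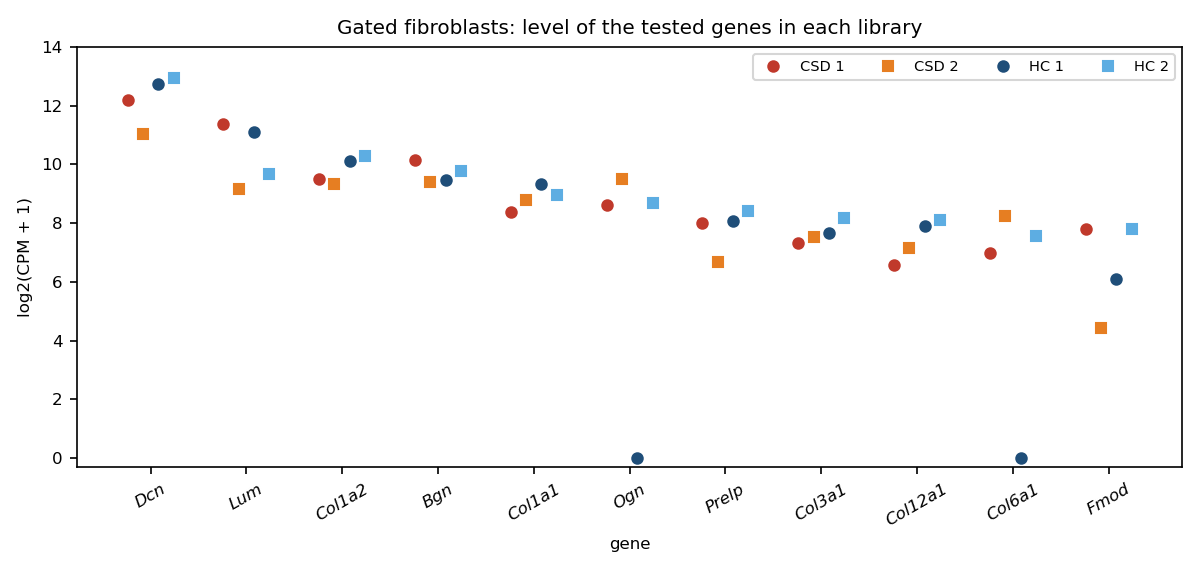
Level of the 11 tested genes in gated fibroblasts, as log2(CPM + 1), with 1 point per library (CSD red and orange, HC dark and light blue). The CSD points lie below the HC points for Dcn, Col1a2, Col1a1, Prelp, Col3a1 and Col12a1, and the points at 0 are Ogn and Col6a1 in HC 1, a library with 6 fibroblasts.

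Fibroblasts were then compared to mural cells. Of 16 members tested, 12 were higher in fibroblasts and 0 lower, where 19.8% of all 4798 genes passed (8.73% higher and 11.1% lower). The median log2 difference was 2.70 for the 16 members and −0.13 for all genes. Genes nearly absent from mural cells, such as Col1a1, Col15a1 and Col23a1 with 5, 7 and 10 UMIs there, passed the filter on low counts through fibroblasts and had to differ, so the count and the median are descriptions only. Col1a1 differed most (7.59, SE 0.47, adjusted p = 1.44e-09). Mural cells held 5 Col1a1 UMIs in all (1.86 CPM pooled, exact 95% Poisson interval 0.603 to 4.34), and the pooled ratio was 244 (exact 95% interval 101 to 769). Lum (7.30, SE 0.40) and Dcn (6.07, SE 0.26) followed. Col15a1 (47.6, 40.6, 67.8 and 170 CPM in fibroblasts of CSD 1, CSD 2, HC 1 and HC 2, 7 UMIs in all mural cells) differed by 4.68 (SE 0.65). Col23a1 (4.59, SE 0.48), Col12a1 (4.11, SE 0.55), Col5a2 (2.76, SE 0.43), Col1a2 (2.73, SE 0.28), Col13a1 (2.66, SE 0.51) and Col3a1 (1.97, SE 0.38) were also higher, with adjusted p-values of 0.00081 or less. Prelp (1.19, SE 0.34, adjusted p = 0.0157) and Bgn (0.87, SE 0.28, adjusted p = 0.0325) passed narrowly, and both lost the call without CSD 1, without HC 2, with no filter on low counts and with DESeq2, Prelp also without HC 1 and Bgn also at 1000 UMIs per cell and with clusters. Ogn, Col8a1, Col18a1 and Col27a1 did not pass, with log2 differences of −0.28 to 0.58.

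In mural cells the set had another order, led by Bgn. Bgn was at 346, 516, 563 and 326 CPM in CSD 1, CSD 2, HC 1 and HC 2, and Ogn at 255, 177, 317 and 203 CPM. Col1a2 was at 117, 118, 170 and 101 CPM, while its partner Col1a1 was at 1.21, 4.74, 0 and 1.73 CPM, a level close to the 1.37 ± 0.54 CPM of RNA outside cells. Col18a1 was at 123, 109, 143 and 78.0 CPM, and Col3a1 at 49.5, 48.9, 65.9 and 34.7 CPM. For Bgn, Ogn, Col1a2, Col18a1 and Col3a1 HC 1 was the highest library, and CSD and HC overlapped in each. Col8a1 (73.6, 88.4, 150 and 52.0 CPM), Prelp (82.1, 101, 85.9 and 111 CPM) and Col27a1 (24.1, 52.1, 35.3 and 34.7 CPM) also overlapped.

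Mural cells compared to EC were higher for 10 of 13 members tested and lower for 0, where 49.6% of 9567 genes passed (24.4% higher and 25.2% lower). Genes nearly absent from EC, such as Col3a1 and Col6a1 with 7 and 5 UMIs there, passed the filter on low counts through mural cells. They had to differ, so the count is a description only. Ogn (log2 difference 6.00, SE 0.22), Col3a1 (5.84, SE 0.37), Bgn (5.13, SE 0.24) and Col1a2 (4.96, SE 0.29) differed most. Col8a1 (4.17, SE 0.36), Col6a1 (4.17, SE 0.57), Prelp (3.89, SE 0.22), Col18a1 (3.50, SE 0.18), Col27a1 (3.38, SE 0.45) and Dcn (3.15, SE 0.39) completed the list, and all 10 had adjusted p-values of 2.39e-05 or less. Col9a3, Col13a1 and Col14a1 did not pass. Without the 16 mural cells and 7 EC that held 3 or more fibroblast markers, 8 members were called, and Dcn and Col6a1 were no longer among them. EC themselves held little: their highest members were Bgn at 14.0 ± 6.34 CPM, Col14a1 at 13.03 ± 2.82 CPM and Col18a1 at 11.2 ± 3.18 CPM. RNA outside cells, read from barcodes of at most 100 UMIs, held Bgn at 37.9 ± 6.22 CPM, Col18a1 at 10.4 ± 3.34 CPM and Col14a1 at 3.02 CPM, so that Bgn in EC was below this background and Col18a1 differed from it by less than the spread between libraries.

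Pericytes and SMC, the cell kinds of the mural class, shared Bgn and Col1a2 but not Col18a1. Of 9 members tested, 2 were higher in pericytes and 4 in SMC, where 45% of 4316 genes passed (22% higher and 23% lower in pericytes). Col18a1 was at 149, 174, 175 and 118 CPM in SMC of CSD 1, CSD 2, HC 1 and HC 2, and pericytes held 2 UMIs of it in all, both in CSD 2. The pooled level was 42.1 times higher in SMC (exact 95% interval 11.6 to 349). Col18a1 passed the filter on low counts through SMC and had to differ, so the counts of higher and lower members are descriptions only. Col3a1 (61.2, 19.97, 9.58 and 6.37 CPM in pericytes, 52.7, 70.1, 77.8 and 49.4 CPM in SMC) was lower in pericytes by a log2 difference of −1.77 (SE 0.44, adjusted p = 0.00147). Ogn (−1.23, SE 0.19, adjusted p = 5.97e-06) and Col8a1 (−0.94, SE 0.30, adjusted p = 0.0115) were lower in pericytes as well, the latter not without CSD 2 (adjusted p = 0.193), with clusters or without the library block. Col27a1, a fibrillar collagen known from cartilage, was at 97.9, 74.9, 86.2 and 82.8 CPM in pericytes and 16.1, 31.1, 20.9 and 13.7 CPM in SMC, without overlap (log2 difference 1.83, SE 0.34, adjusted p = 6.17e-05). Bgn (470 ± 135 CPM in pericytes, 437 ± 135 CPM in SMC) and Col1a2 (119 ± 38.2 and 127 ± 36.7 CPM) differed by less than the spread between libraries.

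**Figure D3:**
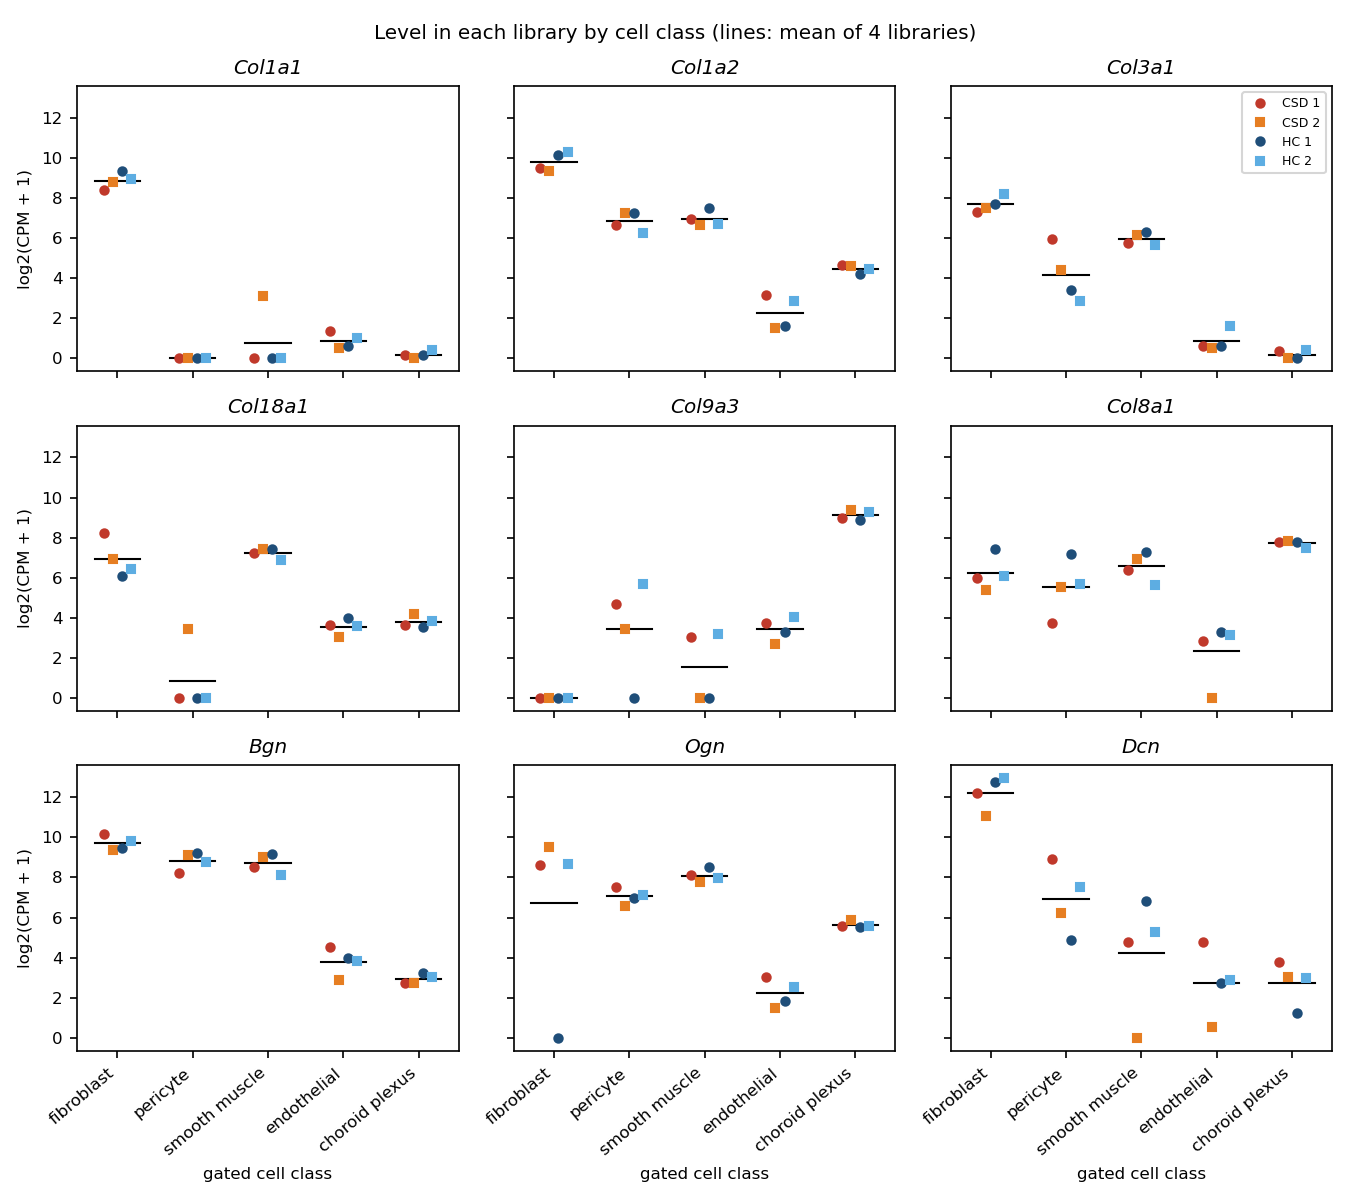
Level of 9 genes in 5 cell classes, as log2(CPM + 1), with 1 point per library and a line at the mean of the 4 libraries on that log scale. Col1a1 lies at 333 to 645 CPM in fibroblasts and at 7.79 CPM or less in the other 4 classes, Col18a1 in fibroblasts and SMC but not pericytes, and Col9a3 in choroid plexus cells, where the 4 libraries lie close together.

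Dcn was called higher in pericytes than in SMC (log2 difference 1.99, SE 0.50, adjusted p = 0.00178, and 0.0501 without CSD 2). Its level outside fibroblasts rested in part on few cells, and 36 pericytes and 9 SMC held a Dcn UMI. In SMC 1 cell of HC 1 held 57 of the class's 91 Dcn UMIs (62.6%) together with 4 fibroblast markers, and in pericytes 1 cell of CSD 1 held 28 of 87 Dcn UMIs. Of the 17 Lum UMIs of pericytes, 16 were in 1 cell of CSD 1. Each of these cells held 4 fibroblast markers. Cells with 3 or more fibroblast markers were left out to see how much depended on them. Dcn in SMC then went from 44.2 ± 47.9 to 2.005 ± 1.37 CPM, and in choroid plexus cells from 7.06 ± 4.74 to 0.443 ± 0.366 CPM. In pericytes it went from 194 ± 207 to 112 ± 72.4 CPM, with 155, 75.7, 28.7 and 187 CPM in CSD 1, CSD 2, HC 1 and HC 2, all above the 22.8 ± 5.77 CPM of RNA outside cells, with 3 UMIs behind the HC 1 value. The level of Dcn in SMC, EC and choroid plexus cells without those cells was below that of RNA outside cells.

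**Figure D4:**
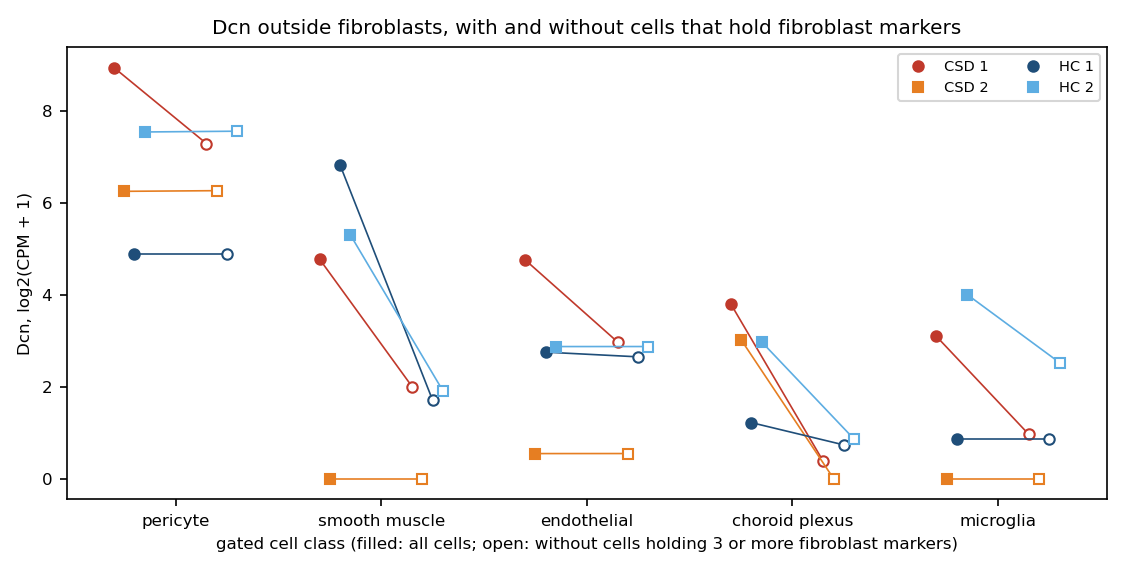
Dcn level outside fibroblasts, as log2(CPM + 1), for each library in 5 cell classes, with all cells (filled) and without cells that held 3 or more fibroblast markers (open). The lines fall in SMC and choroid plexus cells in every library that had Dcn UMIs there, and are nearly flat in pericytes except for CSD 1.

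Of the genes given here for choroid plexus cells, Col9a3, Col8a1 and Col17a1 had their highest mean there, while the others were higher in another class. Col9a3, a chain of the fibril-associated type IX collagen known from cartilage, was at 512, 663, 478 and 614 CPM in CSD 1, CSD 2, HC 1 and HC 2. Fibroblasts held 0 UMIs of it, which allows up to 14.9 CPM over the 4 libraries. Col8a1 and Col8a2, the chains of the network-forming type VIII collagen, were at 220, 225, 221 and 181 CPM and at 51.4, 67.9, 53.5 and 49.8 CPM. Prelp was at 135, 169, 152 and 149 CPM and Ogn at 49.2 ± 5.52 CPM. The means of Prelp in ependymal cells and fibroblasts (312 and 242 CPM) and of Col8a2 in ependymal cells (77.8 CPM) were higher. Ogn was also higher in fibroblasts (384 CPM) and in mural cells, as given above. Col17a1, a transmembrane collagen of hemidesmosomes, was at 8.75 ± 0.49 CPM, against 2 UMIs in all EC (pooled ratio 35.0, exact 95% interval 9.59 to 291). The spread between libraries was small beside the levels, in a class of 2106176 to 9041790 UMIs per library.

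Choroid plexus cells compared to EC were higher for 9 of 12 members tested and lower for 0, where 79.8% of 10468 genes passed (38.9% higher and 40.9% lower). Genes nearly absent from EC, such as Col17a1 and Col8a2 with 2 and 10 UMIs there, passed the filter on low counts through choroid plexus cells. They had to differ, so the count is a description only. Col9a3 (log2 difference 6.59, SE 0.19), Col8a2 (6.24, SE 0.28), Col8a1 (6.06, SE 0.27) and Prelp (5.23, SE 0.18) differed most, Col17a1 by the ratio given above, with adjusted p-values of 2.77e-08 or less. Ogn (4.41, SE 0.24), Col1a2 (3.07, SE 0.26), Col27a1 (2.43, SE 0.34) and Col18a1 (0.999, SE 0.23) were also called higher. Ogn was at 49.2 ± 5.52 CPM, against 27.3 ± 9.44 CPM in RNA outside cells. Col1a2 was at 21.5 ± 3.05 CPM, against 14.6 ± 1.20 CPM there. Col27a1 was at 12.04 ± 2.07 CPM, against 11.9 ± 2.43 CPM, and Col18a1 at 13.2 ± 2.80 CPM, against 10.4 ± 3.34 CPM. Col27a1 and Col18a1 differed from this background by less than the spread between libraries. In CPM, Col18a1 also differed from its EC level given above by less than that spread. Bgn, Dcn and Col14a1 did not pass. RNA outside cells held Col9a3 at 160 ± 65.4 CPM, Prelp at 52.7 ± 19.3 CPM and Col8a1 at 47.1 ± 25.8 CPM, and all 3 were lowest there in CSD 2, the library with the fewest choroid plexus cells.

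Some members were also found in other classes, given here beside their level in RNA outside cells. Microglia held Col27a1 at 210, 154, 198 and 130 CPM, in 32.1% of 4369 cells, and Col15a1 at 14.1 ± 1.23 CPM, against 11.9 ± 2.43 and 2.24 ± 0.27 CPM outside cells. Ependymal cells held Prelp at 266, 346, 315 and 321 CPM, Col8a2 at 77.8 ± 19.3 CPM, Col5a3 at 67.8 ± 13.4 CPM and Col6a5 at 51.5 ± 20.1 CPM, against 52.7, 17.1, 2.43 and 1.6001 CPM outside cells. Oligodendrocyte precursors held Col9a3 at 97.0 ± 28.7 CPM, below its 160 CPM outside cells. They held Col11a2 at 62.7 ± 18.01 CPM and Col11a1 at 59.1 ± 5.57 CPM, with 16 UMIs behind each, against 4.27 and 2.195 CPM outside cells. These were given as levels and not tested between classes. At the other end, Col9a1, Col19a1, Col24a1, Col10a1, Col6a6, Col6a4, Col22a1 and Col2a1 had 1 to 10 UMIs each over all 14415 cells.

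Outside fibroblasts, CSD compared to HC also gave no called member. In mural cells 10 members were tested and 0 passed (0% of 7069 genes passed), with 1 member and 118 genes in all at an unadjusted p under 0.05 and 0 members called by DESeq2. That member was Dcn (72.4, 23.7, 95.1 and 102 CPM, log2 fold change −0.996, SE 0.41, unadjusted p = 0.0341, adjusted p = 0.999). A single cell of HC 1 held 57 of its 196 UMIs. Without the 16 mural cells that held 3 or more fibroblast markers, Dcn was at 20.1, 23.8, 7.05 and 80.3 CPM, the conditions overlapped and the unadjusted p was 0.198. In EC 9 were tested and 0 passed, where 0.0694% of 10093 genes did. There were 0 members and 773 genes in all at an unadjusted p under 0.05, and DESeq2 called 0 members. The largest EC value was that of Col8a1 (6.24 and 0 CPM in CSD, 8.84 and 7.89 CPM in HC, log2 fold change −1.40, SE 0.93, adjusted p = 0.781). RNA outside cells held Col8a1 at 51.8 and 12.8 CPM in CSD 1 and CSD 2. It held 75.5 and 48.1 CPM in HC 1 and HC 2, so the EC level was below this background in each library.

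In choroid plexus cells 16 members were tested and 0 passed, where 0.0612% of 11438 genes did, and DESeq2 called 0 members. At an unadjusted p under 0.05 there were 1 member and 350 genes in all. Col9a3 had a log2 fold change of 0.09 (SE 0.19), Col8a1 of 0.14 (SE 0.16) and Prelp of −0.0016 (SE 0.17). The only member at an unadjusted p under 0.05 was Dcn (12.9 and 7.12 CPM in CSD, 1.32 and 6.86 CPM in HC, log2 fold change 1.36, SE 0.44, unadjusted p = 0.0059, adjusted p = 0.9996). Leaving out CSD 2 (log2 fold change 1.58, adjusted p = 0.000321), HC 2 (3.02, adjusted p = 0.00223) or the filter on low counts (1.36, adjusted p = 0.00132) brought it past the threshold. Without the 67 choroid plexus cells that held 3 or more fibroblast markers, 14 Dcn UMIs remained of 182 and the gene had too few counts to be tested.

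In ependymal cells (4 members tested), microglia (6), pericytes (6) and SMC (9) 0 members passed, where 0.0412% of genes passed in pericytes and 0% in the others. In the same order 156, 124, 102 and 162 genes in all had an unadjusted p under 0.05, and 1 member did. That member was Dcn in SMC (26.3 and 0 CPM in CSD, 112 and 38.4 CPM in HC, log2 fold change −2.29, SE 0.61, unadjusted p = 0.00185, adjusted p = 0.999), and most of its UMIs were those of the single HC 1 cell named above. Leaving out 1 library brought Dcn past the threshold in SMC (adjusted p = 0.000725 without CSD 1, which left CSD 2 with 0 Dcn UMIs, and 2.55e-09 without HC 2) and, with the opposite sign, in pericytes (log2 fold change 2.11 without CSD 2 and 3.104 without HC 2, against 1.05 with all libraries). With the cells that held 3 or more fibroblast markers left out, the counts for SMC were too low to test, and pericytes gave a log2 fold change of −0.22 (SE 0.62, adjusted p = 0.993). No member had enough counts to be tested in T cells, astrocytes or oligodendrocyte precursors.

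Whether the CSD effect differed between fibroblasts and mural cells was tested directly. Of 21 members tested, 0 passed, where 0.0301% of 6646 genes did, and 250 genes in all had an unadjusted p under 0.05. At an unadjusted p under 0.05 there were 2, Col12a1 (95.1 and 142 CPM in CSD against 237 and 272 CPM in HC in fibroblasts, and 14.5 and 14.2 against 1.53 and 5.20 CPM in mural cells, difference of log2 fold changes −3.02, SE 1.11, adjusted p = 1) and Ogn (1.67, SE 0.82, adjusted p = 1). Leaving out HC 2, so that HC 1 with no Ogn UMI in fibroblasts stood alone for HC, called Ogn.

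Of 32 genes for chaperones, modifying enzymes, proteinases and crosslinkers, 16 were tested against mural cells, and 4 were higher in fibroblasts and 0 lower, where 19.8% of all genes passed (8.73% higher and 11.1% lower). The 4 genes were Adamts2, which removes the amino-terminal propeptide (log2 difference 3.35, SE 0.53), Pcolce, which enhances carboxy-terminal cleavage (2.51, SE 0.29), P3h3 (1.79, SE 0.52) and the prolyl isomerase Ppib (0.89, SE 0.28). The median log2 difference of all 16 was 0.62, beside −0.13 for all genes. Any gene that passed the filter on low counts through a single class had to differ, so the count and the median are descriptions only. Of 15 collagen receptors and turnover genes 5 were tested: the endocytic collagen receptor Mrc2 (2.44, SE 0.41) and the membrane proteinase Mmp14 (2.28, SE 0.53) were higher in fibroblasts, and the integrin chains Itga1 (−3.05, SE 0.37) and Itgb1 (−1.69, SE 0.27) were lower.

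Of 24 other interstitial matrix genes 15 were tested, with 11 higher in fibroblasts and 2 lower, where 8.73% and 11.1% of all genes were. The median log2 difference was 1.94, beside −0.13 for all genes. A gene that passed the filter on low counts through a single class had to differ, so the count and the median are descriptions only. The highest were the microfibril-associated Mfap5 (5.50, SE 0.61) and Mfap4 (5.24, SE 0.59), periostin (Postn, 4.67, SE 0.53) and thrombospondin 2 (Thbs2, 4.45, SE 0.53). Lower were Ecm2 (−1.98, SE 0.55) and asporin (Aspn), another small leucine-rich proteoglycan outside the name rule. Aspn was at 529, 428, 515 and 366 CPM in mural cells and had no UMI in fibroblasts, so that its pooled level was at least 31.2-fold lower there (3 counts over the class taken as the floor).

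In mural cells compared to EC, of 25 processing genes tested 14 were higher in mural cells and 6 lower, where 24.4% and 25.2% of all genes were. The higher genes were led by Adamts14 (pooled ratio 136, exact 95% interval 23.2 to 5473, with 1 UMI in EC), the lysyl oxidase Lox (log2 difference 5.52, SE 0.43) and its relatives Loxl1 (pooled ratio 49.1, exact 95% interval 15.9 to 246, with 3 UMIs in EC) and Loxl3 (log2 difference 4.19, SE 0.57). Of 6 receptor and turnover genes 5 were higher and 0 lower, among them Mmp14 (3.95, SE 0.46), Mrc2 (3.84, SE 0.47) and the collagen-binding kinase Ddr2 (3.54, SE 0.23). Of 10 other matrix genes 7 were higher, led by Aspn (6.76, SE 0.20) and Omd (pooled ratio 92.9, exact 95% interval 24.7 to 784, with 2 UMIs in EC), and 2 were lower, fibronectin (Fn1, log2 difference −2.55, SE 0.13) and Fbln2 (−1.66, SE 0.32). Adamts14, Loxl1 and Omd, nearly absent from EC, passed the filter on low counts through mural cells. Such genes had to differ, so the counts of these lists are descriptions only. In CSD compared to HC, 0 genes of the 3 lists passed in fibroblasts, mural cells, EC or choroid plexus cells by edgeR. In a class 0 to 3 genes of a list had an unadjusted p under 0.05, beside 57, 118, 773 and 350 genes in all in these classes, in the same order.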

How the data were processed

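The deposited values were raw UMI counts per gene and barcode, made by the authors with Cell Ranger (4.0 in the submitters' processing notes, 3.1.0 in the matrix headers) against GRCm38/mm10, unfiltered and not normalized. From these counts, barcodes with at least 500 UMIs, at least 250 genes and at most 25% mitochondrial UMIs were kept. Cells were classed by 14 marker lists, and 828 barcodes with markers of more than one class and 441 with under 3 markers of any were left out. No doublet caller was run. The limit on a second class was set after cell numbers were seen. Counts were summed per library and class and tested with edgeR 4.0.16 (TMM, filterByExpr, quasi-likelihood F test, two-sided), with Benjamini-Hochberg adjustment over all genes tested and a threshold of 0.05. CSD was compared to HC over 2 and 2 libraries, and classes were compared with library as a block. SE is the absolute log2 fold change divided by the square root of F. A gene that passed the count filter through only one class had to differ, so members tested are not all members. Libraries are pools of mice, and in sums over all cells every pair of libraries differed by more than sampling noise. Chi-square per degree of freedom was 63.0 for CSD 1 and CSD 2 and 16.7 for HC 1 and HC 2. Between conditions it was 12.8 (CSD 1 and HC 1) to 97.9 (CSD 2 and HC 2). These sums include differences in the mix of cell classes. CPM is UMIs per 1000000 UMIs of the class in a library, and percent values are shares of cells. CSD compared to HC in fibroblasts, mural cells, EC and choroid plexus cells was also fitted to simulated counts of fixed dispersion. So were fibroblasts against mural cells, mural cells against EC, and the difference between the effects in fibroblasts and mural cells. The other fits were not simulated. Clusters used scanpy with 3000 variable genes, 40 components and a resolution of 1.6, leaving out members. Alternatives were DESeq2 1.42.0, other size factors, no filter, 1000 UMIs, a complexity limit of 0.8, clusters, a gate with Col1a1, Col3a1 and Dcn, blocks and left-out libraries. Genes with a mean of at least 100 CPM in fibroblasts, mural cells, EC or choroid plexus cells, called genes, Col1a1, Col3a1 and Dcn were given by library where the results turn on them, and from each list up to 4 called genes per direction. Genes in the set and the lists were chosen with earlier results of these data known.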

Additional observations from a re-analysis of the deposited data

Results flagged for a closer look

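Col12a1, Col1a2 and Dcn were flagged because both CSD libraries lay on opposite sides of both HC libraries in different classes. For Col12a1 the mean in CSD minus the mean in HC was −136 CPM in fibroblasts and 11.0 CPM in mural cells, and the direct test of this difference did not pass (−3.02 on the log2 scale, adjusted p = 1). In mural cells 1 cell of CSD 2 held 6 of the 25 Col12a1 UMIs and 9 UMIs lay behind the CSD 2 value, so that without this cell CSD 2 would hold 3 UMIs, as many as HC 2 in a smaller total, and the conditions would overlap. For Col1a2 it was −491 CPM in fibroblasts and 4.51 CPM in choroid plexus cells, a difference that was not tested. For Dcn it was −3924 CPM in fibroblasts, −50.6 CPM in mural cells and 5.93 CPM in choroid plexus cells, where the fibroblast and mural effects differed by 0.14 on the log2 scale (SE 0.44, adjusted p = 1) and the difference to choroid plexus cells was not tested. Without the cells that held 3 or more fibroblast markers the opposite sides were lost: Dcn in choroid plexus cells was at 0.297 and 0 CPM in CSD and 0.661 and 0.812 CPM in HC, and in mural cells at 20.1 and 23.8 CPM in CSD and 7.05 and 80.3 CPM in HC. Libraries failed to overlap for 33.8% of all genes with at least 20 UMIs in fibroblasts, 27.6% in mural cells and 28.5% in choroid plexus cells.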

How the results depend on the processing

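Counts of called members were recomputed in 102 other settings and stayed within 1.5 times in 93. In choroid plexus cells no filter on low counts gave 1 call in CSD compared to HC, and leaving out a library gave 0 to 1. Leaving out a library, chosen after seeing the data for these classes, gave 0 to 2 calls in the other classes, and 0 to 1 for the difference between the effects in fibroblasts and mural cells. With no filter 22 members were called for mural cells against EC and 17 for choroid plexus cells against EC. With 1 library left out, a lone library is assumed to vary like the others, and leaving out libraries gave 9 to 15 calls for fibroblasts against mural cells.

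Of 494 values for single genes, 463 kept side and direction. The log2 fold change of CSD compared to HC for Col3a1 in mural cells (−0.07) ranged from −0.46 to 0.52 with 1 library left out, and turned to 0.028 with clusters and to 0.031 without cells holding 3 or more fibroblast markers, the last setting chosen after seeing the data. For Dcn it turned to 0.090 in mural cells with clusters, and in EC (1.16) it ranged from −3.50 to 2.16 with 1 library left out and was −0.65 without cells holding fibroblast markers. Dcn in choroid plexus cells against EC (0.31) became −0.0032 at 1000 UMIs and ranged from −0.020 to 0.95 with 1 library left out. The difference between the effects in fibroblasts and mural cells became −0.020 at 1000 UMIs and −0.51 without cells holding fibroblast markers for Dcn (0.14), with −0.13 to 0.45 when 1 library was left out, and for Col3a1 (−0.49) that range was −1.34 to 0.53. The cause was not tested.

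The replicate numbers did not pair the libraries by any label, and deviations of same-numbered libraries correlated at 0.19 in fibroblasts, 0.22 in mural cells, 0.04 in EC, 0.06 in choroid plexus cells, 0.18 in pericytes, −0.03 in SMC and 0.41 in microglia. With the replicate number as a block, 0 members were called in fibroblasts, mural cells, EC and choroid plexus cells, while the calls over all genes there were 29, 2, 132 and 22. Calls over all genes in fibroblasts were 33 with no filter and 0 to 63 with 1 library left out, and DESeq2 called 71 in EC and 4 in choroid plexus cells, while the 61 fibroblasts limit what can be seen there.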

Other observations

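The same 3 lists were counted for choroid plexus cells against EC, where 79.8% of all genes passed (38.9% higher and 40.9% lower). Of 23 collagen processing genes tested 10 were higher in choroid plexus cells and 9 lower, led by Pcolce2 (log2 difference 7.21, SE 0.25) and Loxl1 (pooled ratio 45.6, exact 95% interval 15.5 to 222, with 3 UMIs in EC) on one side and Colgalt2 (−6.14, SE 0.35) on the other. The collagen-binding kinases Ddr1 (4.26, SE 0.18) and Ddr2 (2.35, SE 0.23) were higher, as were the proteinases Fap (4.98, SE 0.26) and Mmp2 (pooled ratio 26.9, exact 95% interval 9.11 to 131, with 3 UMIs in EC), and the integrin chains Itga1 (−5.63, SE 0.14) and Itgb1 (−1.83, SE 0.10) were lower. Of 7 other matrix genes 3 were higher and 3 lower, among them Fbln1 (5.64, SE 0.22) and Fn1 (−7.60, SE 0.24). Loxl1 and Mmp2, nearly absent from EC, passed the filter on low counts through choroid plexus cells. Such genes had to differ, so the counts of these lists are descriptions only.

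Between pericytes and SMC, 6 of 13 processing genes tested were higher in pericytes and 1 lower, where 45% of all genes passed (22% higher and 23% lower). Of 4 receptor and turnover genes 2 were higher in pericytes and 1 lower, and of 7 other matrix genes 2 were higher and 3 lower. The pooled level of the collagen receptor Mrc2 was 79.4 times higher in pericytes (exact 95% interval 26.0 to 395). That of the matrix gene Tnxb was 115 times higher (exact 95% interval 38.3 to 570), each with 3 UMIs in SMC. The pooled level of Eln (elastin) was 27.8 times higher in SMC (exact 95% interval 9.43 to 136), with 3 UMIs in pericytes. Mrc2, Tnxb and Eln each passed the filter on low counts through a single class and had to differ. The counts of these lists are thus descriptions only.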
